A study of Mus musculus with 21 samples.

Results

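Chemokines are small secreted proteins that guide white blood cells, and chemokine receptors are the G protein-coupled receptors through which those cells follow them. The symbol rule, which takes the Ccl, Cxcl, Cx3c and Xcl ligands and the Ccr, Cxcr, Cx3cr and Xcr receptors, found 57 of the 21441 genes in the deposited tables, 38 ligands and 19 receptors. In the gut some ligands are made all the time and place lymphocytes in the tissue: Ccl25 and Ccl28 come mainly from the epithelium and call cells that carry Ccr9 and Ccr10, and Ccl19, Ccl21 and Cxcl13 organise lymphoid tissue through Ccr7 and Cxcr5. Others are inducible: Ccl2, Ccl7 and Ccl12 recruit Ccr2-bearing monocytes, and Cxcl1, Cxcl2, Cxcl3 and Cxcl5 recruit neutrophils. Of these inducible ligands, Ccl2, Ccl7 and Ccl12 lie close together on chromosome 11, and Cxcl1, Cxcl2, Cxcl3 and Cxcl5 on chromosome 5. Over all 57 members, inducible or not, 14 are on chromosome 11, 12 on chromosome 9, 11 on chromosome 5 and 5 on chromosome 4 (mm9).

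The data are 21 RNA-seq libraries of mouse colon and ileum in 6 groups. The treated group held CDX2-VDR transgenic mice, which lack the endogenous vitamin D receptor (VDR) and carry the human VDR in the distal intestine under the CDX2 promoter, given 3 injections of the hormone 1,25D3 at 1 ng per g of body weight, 48, 24 and 6 h before the end (3 colon and 3 ileum libraries). The uninjected group held the same transgenic line without injections (4 colon, 3 ileum). The KO group held Villin-CreERT2 VDR f/f mice (4 colon, 4 ileum), which have floxed VDR alleles and an inducible Cre driven by the epithelial Villin promoter and were given no treatment, per the labels. All mice were C57BL6J. Treated and KO mice were male and uninjected mice female, except 1 male uninjected mouse in each tissue; treated mice were 9 weeks old, uninjected mice 9 or 10 weeks and KO mice 9 or 11 weeks. Treated minus uninjected therefore also differs in injection and mostly in sex, uninjected minus KO mostly in sex, and both comparisons with KO mice in Cre, in the other cells that lack VDR and partly in age. Injection, Cre and the other cells that lack VDR cannot be told apart from the receptor or the hormone here. Sex was entered as a covariate in the colon comparisons with uninjected mice, where it rests on 1 male library. The labels name no animal, so that p-values measure the spread between libraries.

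The estimated depth was 9.63 to 38.5 M reads in the colon and 13.4 to 44.0 M reads in the ileum, with 15548 to 17110 genes above 0. Mouse Vdr overlapped between treated libraries and those labelled KO, with 20.7 to 39.9 FPKM in treated and 22.1 to 24.9 FPKM in KO colon, and 13.4 to 22.6 FPKM in treated and 20.3 to 22.2 FPKM in KO ileum. In the colon the uninjected libraries overlapped with both other groups; in the ileum Vdr was above KO in uninjected libraries (22.1 to 24.9 FPKM, against 19.3 to 21.0 FPKM in KO libraries), and below uninjected in treated libraries (12.3 to 21.2 FPKM, against 21.4 to 24.4 FPKM in uninjected libraries), without overlap but by a small margin. The gene-level value is thus no check of the genotype and every direction below rests on the labels. Although the labels call the tissue epithelium, markers of macrophages, T cells, stroma and endothelium were above 0 in every group, so the libraries hold other cells, and fewer cells of a type cannot be told apart from less RNA per cell. Pancreatic acinar genes stood far above the rest of their tissue in Colon treated 4 (summed level 21564 FPKM), Colon uninjected 3 (116400 FPKM) and Colon KO 2 (37685 FPKM), and less so in Ileum treated 4 (725 FPKM) and Ileum uninjected 3 (778 FPKM). Treated libraries, and uninjected ileum libraries, are named by the number of their column.

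Higher levels in the treated colon were the main feature of these genes. Against KO colon, 35 of the 57 averaged 1 FPKM or more over the libraries and were tested. Ccl2 and Ccl7 rose (adjusted p under 0.05, limma) and none fell, where 0.224% of all 12505 genes rose and 0.072% fell. A total of 18 of the 35 had an unadjusted p under 0.05, all of them higher in treated colon, against 7.31% of all genes, 3.85% higher and 3.46% lower. In 12 of the 35 every treated library was above every KO library, which held for 4.16% of all genes. The difference was positive for 27 of the 35, against 49% of all genes, and its median was 0.82 on the log2 scale, against -0.01 over all genes. A gene expressed in a single group can be kept through that group, so these counts describe the genes tested, not all 57; with every gene above 0 kept, 55 were tested and the same 2 genes were called.

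Against uninjected colon, 34 members were tested and 0 were called by limma, as were 0% of all 12567 genes. By unadjusted p, 12 members were under 0.05, all higher in treated colon, against 1.14% of all genes, 0.947% higher and 0.191% lower. In 8 members the treated libraries lay above all uninjected ones (1.03% of all genes), and 27 of the 34 differences were positive (49.2% of all genes). Here too genes could be kept through the treated group, such as Cxcl5 with a mean of 0.446 FPKM in uninjected colon. Both comparisons use the same treated libraries and are not independent.

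In treated minus KO ileum 45 members were tested and 0 were called by limma, where 0.0835% of all genes were called, 0.0585% higher and 0.0251% lower. A total of 9 had an unadjusted p under 0.05, all higher in treated ileum, against 3.65% of all genes (2.08% higher), and in 7 the treated libraries lay above all KO ones (3.03% of all genes). Of the 9, Ccl7 and Cxcl5 averaged 0.724 and 0.809 FPKM in KO ileum, so the filter of 1 FPKM kept them through treated ileum. Ccl7 was kept in the same way against uninjected ileum. In treated minus uninjected ileum 44 were tested, 0 were called (0% of all genes) and 7 had an unadjusted p under 0.05, all higher (0.482% of all genes). There the treated libraries lay above all uninjected ones in 8 members (1.48% of all genes) and below them in 1 (1.22% of all genes), and 27 of the 44 differences were positive (47.2% of all genes).

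No member passed the threshold between uninjected and KO mice. In the colon 31 members were tested and 0 were called by limma, where 0.0804% of all genes were called, 0.0563% higher and 0.0241% lower; 1 member was higher and 2 lower at an unadjusted p under 0.05, or 9.68% of those tested, against 4.6% of all genes. There 20 of the 31 differences were positive (49.3% of all genes). Their median was 0.27 on the log2 scale, against -0.01 over all genes. In the ileum 41 were tested and 0 were called (0.00846% of all genes); 3 were higher and 2 lower at an unadjusted p under 0.05, or 12.2% of those tested, against 5.42% of all genes, 3.46% higher and 1.96% lower. Groups did not overlap for 2 ileum members that were higher (5.26% of all genes) and 1 that was lower (3.35% of all genes), and 20 of the 41 differences were positive (51.1% of all genes). Voom on recovered reads called the same 2 members in treated minus KO colon and 0 in the other 5 comparisons.

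**Figure D1:**
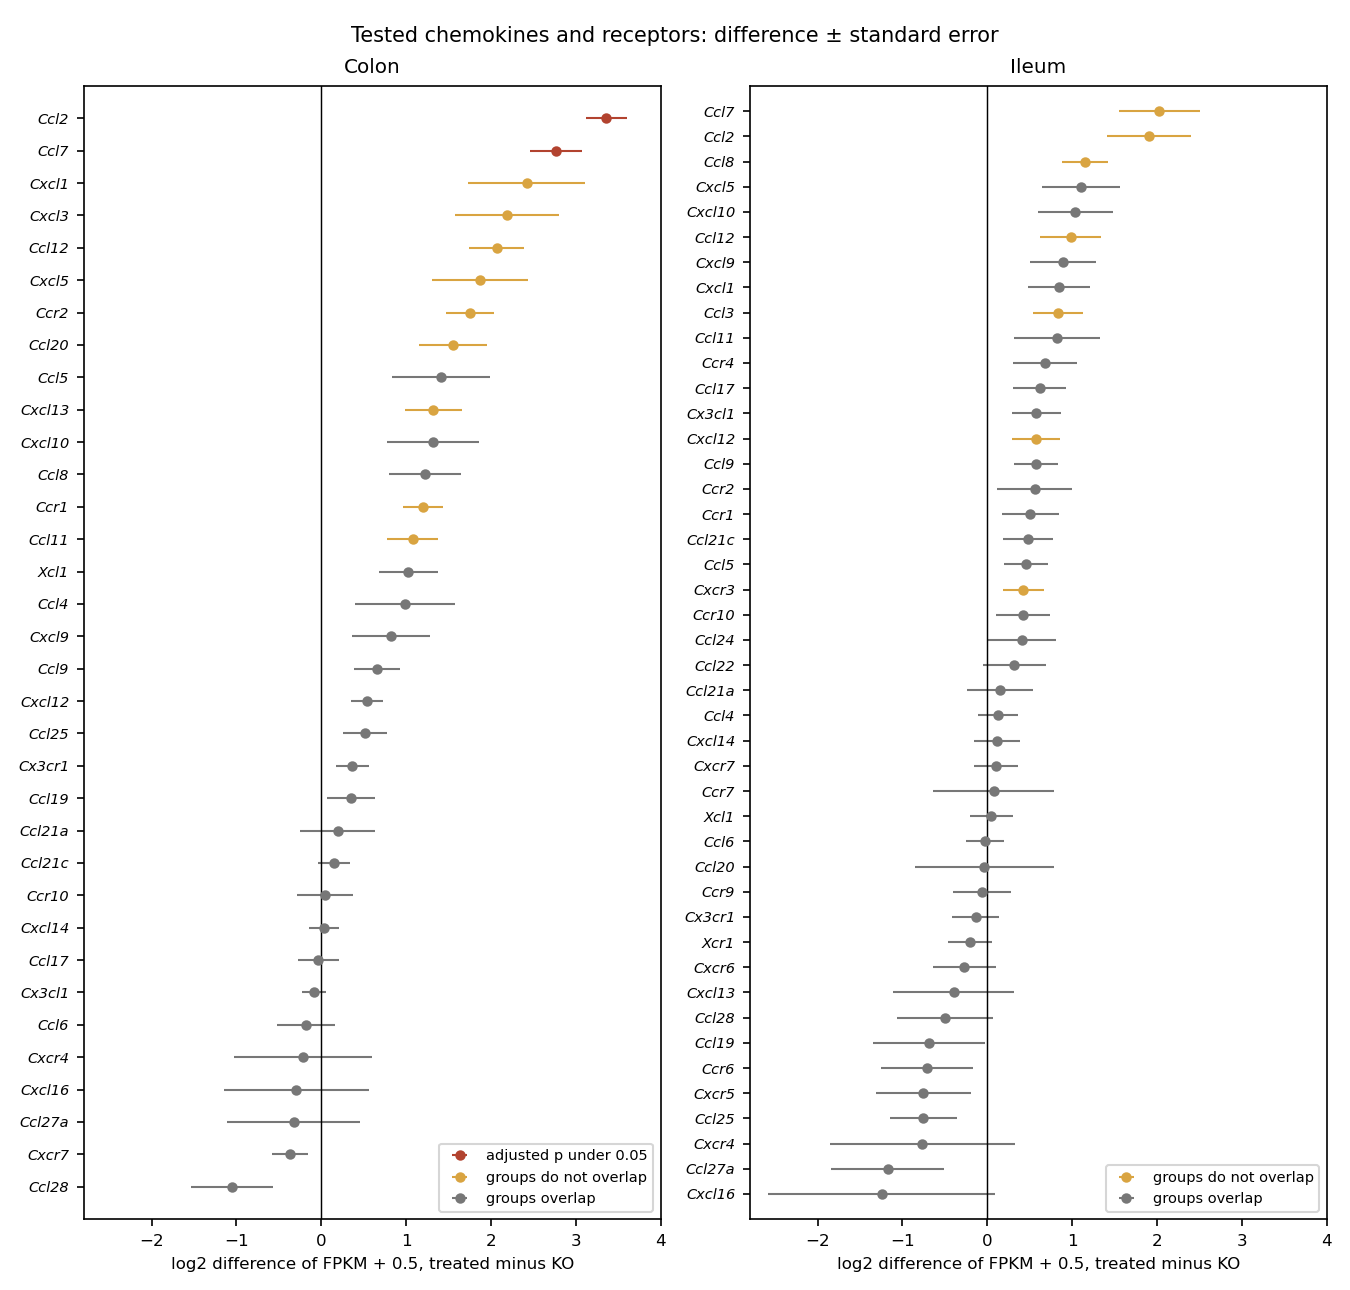
Log2 difference of FPKM + 0.5 (x axis) of tested genes (rows), treated minus KO, in the colon (34 genes drawn) and the ileum (44 genes drawn); bars are standard errors from limma, and colour marks genes past the threshold, genes whose groups did not overlap and the rest. Ccl2 (3.36) and Ccl7 (2.77) stand at the top of the colon panel, and Ccl7 (2.03) and Ccl2 (1.90) lead the ileum panel without passing the threshold.

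Ccl2, the main ligand of Ccr2 and a strong attractant of inflammatory monocytes, had 15.2, 19.6 and 29.1 FPKM in treated colon, against 1.35, 1.61, 1.90 and 1.39 FPKM in KO colon. The lowest treated library was far above the highest KO library. The difference was 3.36 ± 0.24 (SE) on the log2(FPKM + 0.5) scale, which understates the change of low genes and is used for every difference below, a 10.3-fold higher level in treated colon (adjusted p = 0.00104, limma). In the table with uninjected colon the treated libraries had 14.4, 18.5 and 27.7 FPKM, against 1.27, 2.17, 5.25 and 1.57 FPKM in uninjected libraries. These groups did not overlap either, but the difference of 2.87 ± 0.45 did not pass (adjusted p = 0.53). The value of 5.25 FPKM belongs to Colon uninjected 3, one of the libraries with acinar RNA, and without it the difference was 3.23 with an adjusted p of 0.0363. Reads behind these values were few in KO colon, 20, 26, 26 and 27 per library in ascending order, against 126 to 449 in treated colon.

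Ccl7, which also signals through Ccr2 and adds eosinophils and other cells to its targets, followed. It had 8.70, 11.4 and 21.1 FPKM in treated colon, against 1.15, 1.16, 1.93 and 1.70 FPKM in KO colon. The groups lay well apart, by 2.77 ± 0.31 on the log2 scale, or 6.80-fold (adjusted p = 0.0118). Against uninjected colon, with 8.23, 10.8 and 20.1 FPKM in treated libraries and 0.847, 1.85, 2.62 and 1.67 FPKM in uninjected ones, the difference was 2.56 ± 0.41 and did not pass (adjusted p = 0.53). The call of Ccl7 against KO colon sat near the threshold: without Colon KO 1, 2 or 4 in turn its adjusted p was 0.0527, 0.0551 or 0.0503.

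Ccl2 (chr11:81849073-81850955) and Ccl7 (chr11:81859214-81861027) are neighbours on chromosome 11, followed by Ccl11 (chr11:81871325-81876457), Ccl12 (chr11:81915347-81916902) and Ccl8 (chr11:81928687-81930301), all in mm9. Ccl12, a mouse ligand of Ccr2, had 8.45, 8.68 and 12.1 FPKM in treated colon, against 0.852, 2.12, 2.89 and 2.30 FPKM in KO colon. The groups did not overlap, and the difference of 2.07 ± 0.32 just missed the threshold (adjusted p = 0.0543); it passed with a pseudocount of 1. Against uninjected colon it had 7.99, 8.17 and 11.5 FPKM in treated libraries and 1.46, 5.28, 1.95 and 5.23 FPKM in uninjected libraries, again without overlap (1.43 ± 0.45, adjusted p = 1.0; 0.74 with sex as a covariate).

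Ccl11, the eosinophil attractant eotaxin, is one of the more abundant inducible ligands here, with 19.6, 29.7 and 49.3 FPKM in treated colon, against 12.2, 12.6, 15.4 and 17.7 FPKM in KO colon. Every treated library was above every KO library, by a modest margin (1.07 ± 0.30, adjusted p = 0.366). In the table with uninjected colon Ccl11 had 18.6, 27.9 and 47.1 FPKM in treated libraries, against 4.65, 11.1, 5.41 and 13.3 FPKM in uninjected libraries, again without overlap (1.82 ± 0.46, adjusted p = 1.0; 1.1 with sex as a covariate). Ccl8, a monocyte attractant, was the most abundant gene of the cluster and the least even: 64.1, 143 and 38.8 FPKM in treated colon, against 46.5, 25.1, 24.9 and 28.5 FPKM in KO colon, where 1 treated library lay within the KO range (1.22 ± 0.43, adjusted p = 0.556; 0.72 without Colon treated 2). Across uninjected colon Ccl8 spread over 4.83 to 83.6 FPKM.

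**Figure D2:**
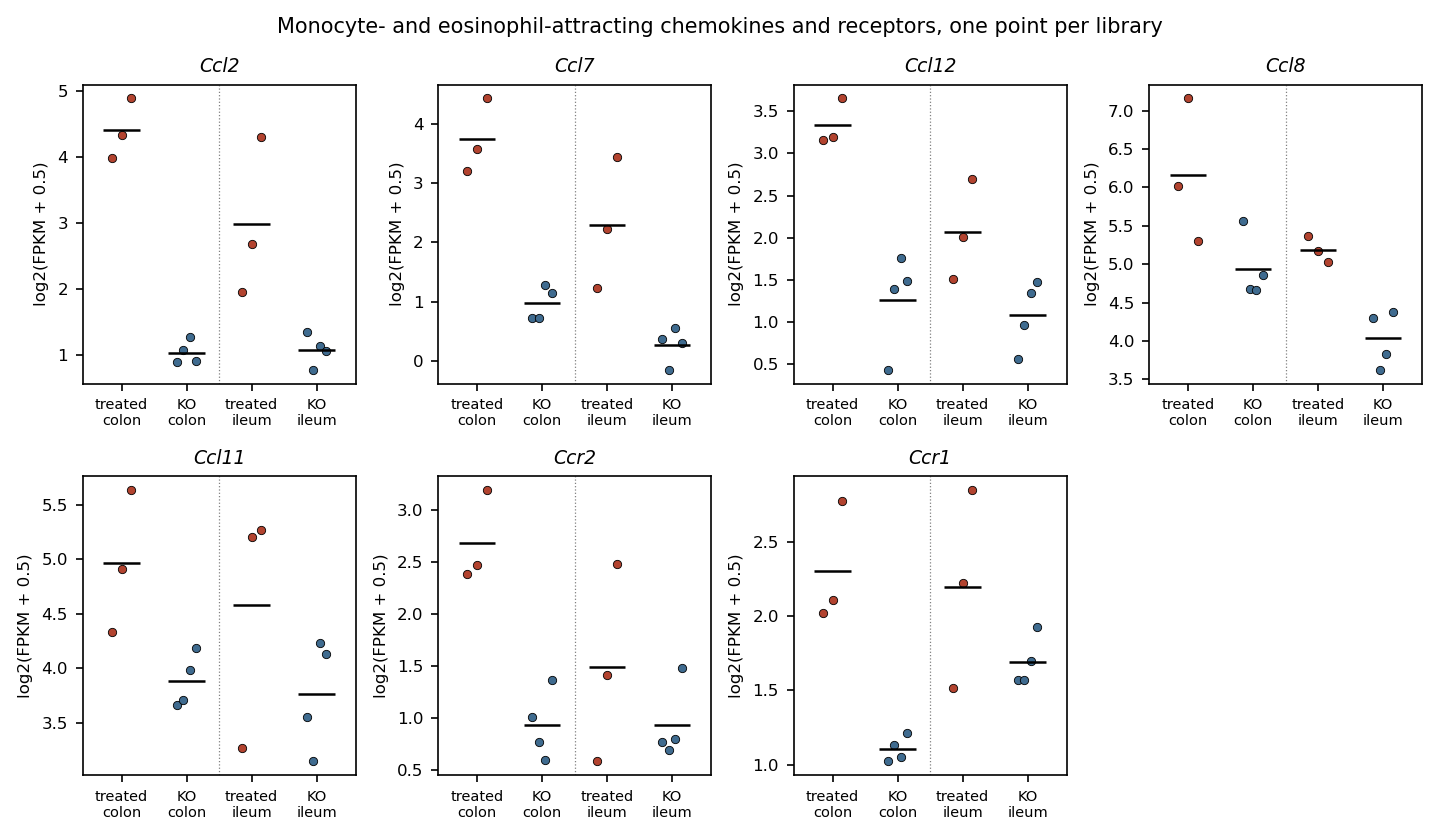
Log2(FPKM + 0.5) of 7 genes of monocyte and eosinophil recruitment (1 panel each), treated left of KO for colon and then ileum; points are libraries and bars are means of the log2 values. Treated and KO colon libraries do not overlap for Ccl2, Ccl7, Ccl12, Ccl11, Ccr2 and Ccr1, whereas in the ileum this holds for Ccl2, Ccl7, Ccl12 and Ccl8.

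In the ileum 4 genes of the cluster had every treated library above every KO library, Ccl11 overlapped, and none passed. Ccl2 had 3.39, 5.89 and 19.3 FPKM in treated ileum, against 2.03, 1.21, 1.70 and 1.59 FPKM in KO ileum (1.90 ± 0.49, adjusted p = 0.687). Ccl7 had 1.85, 4.18 and 10.3 FPKM in treated ileum, against 0.799, 0.401, 0.967 and 0.729 FPKM in KO ileum (2.03 ± 0.48, adjusted p = 0.493). For both, the groups did not overlap but Ileum treated 4 lay far above the other treated libraries, and without it the difference of Ccl2 was 1.24. Ccl8 was the most even, with 40.8, 35.4 and 32.0 FPKM in treated ileum, against 19.3, 11.8, 13.7 and 20.3 FPKM in KO ileum (1.15 ± 0.27, adjusted p = 0.493). Ccl12 had 2.34, 3.52 and 5.97 FPKM in treated ileum, against 0.983, 1.45, 2.04 and 2.28 FPKM in KO ileum, a narrow separation (0.98 ± 0.36, adjusted p = 0.939). Ccl11 had 9.18, 36.4 and 38.0 FPKM in treated ileum, against 11.2, 8.36, 18.3 and 17.0 FPKM in KO ileum (0.82 ± 0.51, adjusted p = 0.939), with Ileum treated 1 inside the KO range.

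Set against uninjected ileum, Ccl2 (3.10, 5.46 and 18.0 FPKM in treated libraries, against 1.78, 1.49 and 1.79 FPKM in uninjected libraries), Ccl7 (1.69, 3.87 and 9.64 FPKM, against 0.576, 0.508 and 0.596 FPKM in uninjected libraries) and Ccl8 (37.4, 32.8 and 30.0 FPKM, against 7.63, 14.5 and 20.04 FPKM in uninjected libraries) were again without overlap. Their log2 differences were 1.75, 2.12 and 1.31, each with an adjusted p of 1.0, and that of Ccl2 was 1.09 without Ileum treated 4. Ccl9, a macrophage-derived CC ligand, had 11.1, 9.45 and 14.6 FPKM in treated ileum, against 3.60, 3.58 and 8.70 FPKM in uninjected ileum, also without overlap (1.17 ± 0.44, adjusted p = 1.0). Ccl11 behaved differently, since 1 treated library was low: 8.40, 33.8 and 35.6 FPKM in treated ileum, against 1.71, 1.76 and 11.9 FPKM in uninjected ileum (2.49 ± 0.81, adjusted p = 1.0). Of the same uninjected libraries 2 were below all KO libraries for Ccl11 and 1 was within their range, with 1.76, 1.82 and 12.2 FPKM in uninjected ileum, against 10.8, 8.04, 17.4 and 16.1 FPKM in KO ileum (-1.68 ± 0.59, adjusted p = 0.665).

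Whether an effect differed between tissues was tested directly, as the ileum difference minus the colon difference. Of 43 members tested in treated minus KO, 0 were called by limma (0.00803% of all 12448 genes were called), and voom was not run on this contrast. A total of 5 had an unadjusted p under 0.05, all with the lower difference in the ileum: Ccl25 (-1.27), Ccl2 (-1.46), Xcl1 (-0.98), Ccl12 (-1.09) and Ccr2 (-1.19), each with an adjusted p of 0.977; of all genes 1.66% were lower in this way. Without Ileum treated 1 the values were -0.83 for Ccl25, -0.95 for Ccl2 and -0.74 for Ccr2. For treated minus uninjected 0 of 43 members were called and 0 had an unadjusted p under 0.05 (0% of all genes called), and for uninjected minus KO 0 of 38 were called, with 0 at an unadjusted p under 0.05 (0.00809% of all genes called).

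The receptors Ccr2 and Ccr1 had higher values in treated colon, and neither passed. Ccr2, the receptor of inflammatory monocytes, had 4.72, 5.05 and 8.67 FPKM in treated colon, against 1.52, 1.2, 1.01 and 2.07 FPKM in KO colon. The groups were clearly apart, yet the difference of 1.75 ± 0.28 missed the threshold (adjusted p = 0.0567); it passed under quantile normalization. Against uninjected colon, with 4.46, 4.76 and 8.27 FPKM in treated libraries and 0.599, 0.873, 0.972 and 1.97 FPKM in uninjected libraries, the difference was 2.00 ± 0.40 (adjusted p = 1.0), and 1.31 with sex as a covariate. Ccr1, carried by monocytes and neutrophils, had 3.57, 3.81 and 6.36 FPKM in treated colon, against 1.53, 1.69, 1.57 and 1.82 FPKM in KO colon (1.2 ± 0.23, adjusted p = 0.116). It did not overlap between treated and KO colon, nor between treated and uninjected colon, where the difference was 1.58, and 0.86 with sex as a covariate. Ccr1 (chr9:123876959-123883525) and Ccr2 (chr9:124016689-124028296) lie close together on chromosome 9.

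In the ileum both receptors overlapped between groups: Ccr2 had 0.997, 2.17 and 5.09 FPKM in treated ileum, against 1.2, 1.12, 1.24 and 2.29 FPKM in KO ileum (0.56 ± 0.44, adjusted p = 0.939). The difference was 0.51 for Ccr1. Among the 12 colon members without overlap, Colon treated 4 held the highest value of 10 and Colon treated 2 that of Cxcl1 and Cxcl3. Colon treated 4 is also the treated library with acinar RNA; without it the difference from KO colon was 3.12 for Ccl2 (adjusted p = 0.00247) and 2.42 for Ccl7 (adjusted p = 0.0179). With Colon KO 2 left out as well, it was 3.13 for Ccl2 (adjusted p = 0.0194) and 2.34 for Ccl7 (adjusted p = 0.0797).

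Markers of macrophages and neutrophils were, like these genes, higher in treated than in KO colon as groups. All 7 macrophage markers tested had a positive difference in treated minus KO colon and 0 passed (5 at an unadjusted p under 0.05, limma), with summed levels of 248, 364 and 178 FPKM in treated colon, against 142, 147, 138 and 128 FPKM in KO colon; no macrophage marker was at 0 in either group. The 5 neutrophil markers in the table summed to 15.1, 121 and 78.3 FPKM in treated colon, against 1.61, 2.03, 1.02 and 1.26 FPKM in KO colon, with up to 3 of the 5 at 0 in a KO library and 1 or 2 at 0 in each treated library. Of the 3 tested, Retnlg rose (7.78 ± 0.761 FPKM in 3 treated and 0.814 ± 0.114 FPKM in 4 KO colon libraries, adjusted p = 0.00104). The macrophage sum was lowest in Colon treated 4, where Ccl2 and Ccr2 were highest. The neutrophil sum was lowest in Colon treated 1 and highest in Colon treated 2, as were Cxcl1 and Cxcl3. Cxcl5 was lowest in Colon treated 1 but highest in Colon treated 4. Among other cell types, all 7 T cell markers had a positive difference (1 at an unadjusted p under 0.05; summed levels of 15.5 to 30.2 FPKM in treated and 10.4 to 20.5 FPKM in KO colon), while 5 of 6 epithelial markers (4051 to 6557 FPKM in treated and 5739 to 7166 FPKM in KO colon) and all 4 endothelial markers tested (11.6 to 32.8 FPKM in treated and 21.1 to 27.3 FPKM in KO colon) had a negative one; 0 passed in these lists. Of 8 stroma and smooth muscle markers, 5 had a positive difference and 3 a negative one. At an unadjusted p under 0.05 (limma) 1 of them was higher and 3 were lower in treated colon, and 0 passed. The share of all genes at that cutoff, for each of these lists, was 7.31%, with 3.85% higher and 3.46% lower. The part of cell number in the chemokine differences was not tested.

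The neutrophil attractants of the CXC family were chosen for fuller description after their values were seen. Cxcl1, the main neutrophil ligand of the mouse, had 0.944, 12.9 and 5.24 FPKM in treated colon, against 0.752, 0.246, 0.697 and 0.0814 FPKM in KO colon. The lowest treated library, Colon treated 1, was barely above the highest KO library, and the difference was 2.42 ± 0.69 (adjusted p = 0.378). Cxcl3 had 0.441, 6.58 and 2.73 FPKM in treated colon, against 0.1, 0.0920, 0.271 and 0 FPKM in KO colon (2.19 ± 0.61, adjusted p = 0.365). Cxcl5 had 0.901, 4.35 and 8.17 FPKM in treated colon, against 0.536, 0.879, 0.305 and 0.620 FPKM in KO colon (1.87 ± 0.56, adjusted p = 0.421). In all 3 genes Colon treated 1 was the low library. Without it Cxcl3 and Cxcl5 passed the threshold beside Ccl2 and Ccl7. No weight is put on that, because the library left out is the one with the low values. The 3 genes averaged 0.444, 0.116 and 0.585 FPKM in KO colon, so the filter of 1 FPKM kept them through treated colon. Cxcl2, too low to be tested, had 0.669, 0.535 and 3.38 FPKM in treated colon, against 0.0465, 0.170, 0.0503 and 0 FPKM in KO colon, also without overlap. Its separation rests on few reads, 18, 5 and 76 in treated colon, against 1, 4, 1 and 0 in KO colon.

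Uninjected colon did not separate from treated colon for Cxcl1 and Cxcl3, where Colon uninjected 3 held 16.5 and 7.24 FPKM, above all treated libraries. For Cxcl1, Colon uninjected 1 and 2 (1.72 and 1.54 FPKM) were also above Colon treated 1 (0.893 FPKM). Its acinar content and its neutrophil marker sum of 9.93 FPKM, against 0.418 to 1.97 FPKM in the other uninjected colon libraries, were high as well; their part was not tested. Cxcl5 did separate, with 0.853, 4.10 and 7.79 FPKM in treated colon, against 0.452, 0.290, 0.603 and 0.440 FPKM in uninjected colon (1.99 ± 0.59, adjusted p = 1.0). Ccl20, the epithelial ligand of Ccr6 that draws B cells and dendritic cells to lymphoid follicles, had 7.56, 8.98 and 17.2 FPKM in treated colon, against 5.30, 4.10, 1.5 and 3.30 FPKM in KO colon (1.55 ± 0.40, adjusted p = 0.31), without overlap. In treated ileum Ccl20 had 2.83, 2.16 and 30.7 FPKM, against 13.3, 4.01, 3.43 and 7.65 FPKM in KO ileum, where Ileum treated 4 was the only high treated library (-0.04 ± 0.82, adjusted p = 0.998). Ccr6 was at most 0.572 FPKM in treated and 0.472 FPKM in KO colon.

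**Figure D3:**
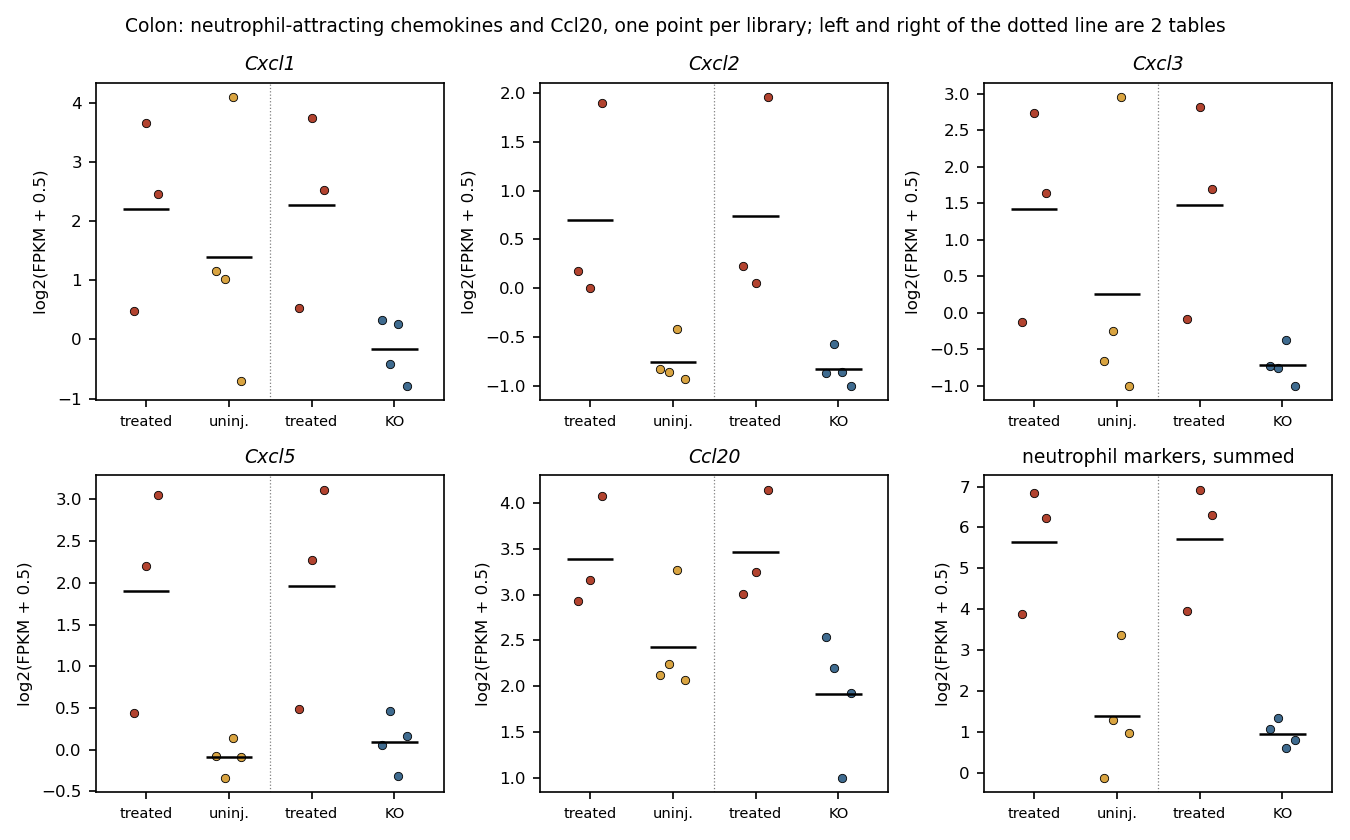
Log2(FPKM + 0.5) in colon libraries of Cxcl1, Cxcl2, Cxcl3, Cxcl5, Ccl20 and of the summed neutrophil markers (1 panel each): left of the dotted line treated and uninjected, right of it treated and KO, from 2 separately scaled tables; points are libraries and bars are means of the log2 values. Treated and KO colon do not overlap in any panel, while Colon uninjected 3 reaches 16.5 FPKM for Cxcl1 and 7.24 FPKM for Cxcl3.

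The promoters of Ccl20 and of the neutrophil ligands Cxcl1, Cxcl2 and Cxcl3 are shown as examples, beside that of Ccl12 from the monocyte cluster. Each of these genes had every treated colon library above every KO colon library, with no call. Cxcl5, Cxcl13, Ccl11, Ccl24, Ccr1, Ccr2, Ccr3 and Ccr9 also had such groups and no call, and their promoters are not shown. Cxcl3 (chr5:91215129-91217112), Cxcl1 (chr5:91320267-91322141) and Cxcl2 (chr5:91332897-91334935) are close together on chromosome 5 in mm9. The sequences are from RefSeq (GRCm38.p6), the 150 bases before the annotated start, 5′ to 3′ on the plus strand, with matches to the kappaB consensus, the motif of the inflammatory factor NF-kappaB, in capitals. The intervals are chr1:83116616-83116765 for Ccl20, chr5:90785951-90786100 for Cxcl3, chr5:90891095-90891244 for Cxcl1, chr5:90903749-90903898 for Cxcl2 and chr11:82101695-82101844 for Ccl12.
Ccl20: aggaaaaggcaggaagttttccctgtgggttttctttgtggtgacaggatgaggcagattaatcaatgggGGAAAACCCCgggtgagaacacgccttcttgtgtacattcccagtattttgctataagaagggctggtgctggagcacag
Cxcl3: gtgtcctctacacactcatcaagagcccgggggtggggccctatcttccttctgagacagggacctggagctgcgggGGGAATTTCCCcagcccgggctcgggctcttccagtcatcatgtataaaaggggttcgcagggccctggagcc
Cxcl1: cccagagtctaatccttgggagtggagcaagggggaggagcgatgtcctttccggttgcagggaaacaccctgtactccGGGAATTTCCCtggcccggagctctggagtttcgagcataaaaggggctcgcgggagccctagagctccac
Cxcl2: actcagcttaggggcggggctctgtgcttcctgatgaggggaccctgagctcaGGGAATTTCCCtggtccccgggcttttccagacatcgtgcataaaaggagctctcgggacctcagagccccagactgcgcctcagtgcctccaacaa
Ccl12: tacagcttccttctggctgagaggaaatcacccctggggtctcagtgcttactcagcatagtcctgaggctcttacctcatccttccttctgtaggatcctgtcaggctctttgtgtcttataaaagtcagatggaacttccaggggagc

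The 3 CXC promoters hold the same 11 capitals, in which a match on each strand overlaps the other, and Ccl12 holds none. Over windows of 250 bases before to 50 after the start, searched on both strands, the kappaB consensus was found for 9 of the 41 member genes with a promoter in the table (22.0%), namely Ccl20, Ccl27a, Ccl9, Ccr3, Ccr6, Cxcl1, Cxcl10, Cxcl2 and Cxcl3, and for 4.51% of all 32851 promoters. The AP-1 motif TGANTCA was found for 8 of the 41 (19.5%) and for 7.81% of all, and the DR3 motif of VDR for 0 of the 41 and 0.0396% of all. The member shares count genes and the shares of all count promoters, so they are not measured alike. Cxcl1, Cxcl2 and Cxcl3 match with the same letters and are not independent cases. Of the members named above as not shown, only Ccr3 is among those with a kappaB match. The promoters shown therefore do not stand for all members higher in treated colon. A match is a run of letters and not a measured binding site. Ccl2, Ccl7 and Ccl11 are among the members without a promoter in the table.

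Of the inflammatory and lymphoid ligands Cxcl13, Ccl5, Cxcl9 and Cxcl10, each with a positive difference in treated minus KO colon, Cxcl13 alone had groups without overlap. Cxcl13, the B cell attractant of lymphoid follicles, had 9.38, 7.96 and 21.1 FPKM in treated colon, against 4.61, 5.87, 3.23 and 4.14 FPKM in KO colon (1.32 ± 0.34, adjusted p = 0.307), without overlap. B cell markers gave no such separation, with summed levels of 12.1 to 29.1 FPKM in treated and 11.3 to 28.5 FPKM in KO colon. In the ileum Cxcl13 had 3.89, 3.26 and 26.2 FPKM in treated libraries, against 12.0, 4.75, 6.80 and 20.3 FPKM in KO libraries (-0.39 ± 0.71, adjusted p = 0.941), with full overlap. Its receptor Cxcr5 was tested in the ileum, with 2.04, 0.111 and 1.75 FPKM in treated libraries and 2.59, 1.44, 1.08 and 3.99 FPKM in KO libraries.

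Ccl5, which calls T cells and monocytes, had 48.6, 54.0 and 31.2 FPKM in treated colon, against 36.0, 4.86, 17.0 and 21.2 FPKM in KO colon (1.41 ± 0.58, adjusted p = 0.662), and the difference was 0.87 without Colon KO 2. T cell markers summed to 15.5 to 30.2 FPKM in treated and 10.4 to 20.5 FPKM in KO colon, and their part was not tested. In the separately scaled ileum table it had 298, 246 and 187 FPKM in treated libraries, against 149, 184, 203 and 167 FPKM in KO libraries (0.45 ± 0.26, adjusted p = 0.939). Both pairs overlapped, and Ileum uninjected 3 reached 784 FPKM, against 173 and 197 FPKM in the other uninjected ileum libraries. The interferon-induced Cxcl9 and Cxcl10, ligands of Cxcr3, averaged 3.14 ± 0.676 and 9.29 ± 5.40 FPKM in treated colon (n = 3), against 1.85 ± 1.35 and 3.31 ± 1.91 FPKM in KO colon (SD, n = 4), with log2 differences of 0.82 and 1.31. In the ileum the differences were 0.89 and 1.04, led by Ileum treated 4 with 20.4 FPKM of Cxcl9 and 29.3 FPKM of Cxcl10, and were 0.48 and 0.53 without it. Cxcr3, on activated T cells, was even within groups, with 1.91, 1.77 and 1.79 FPKM in treated ileum, against 1.25, 1.19, 1.22 and 1.26 FPKM in KO ileum, without overlap but small (0.43 ± 0.24, adjusted p = 0.939).

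Ccl3, a macrophage ligand of Ccr1, had 1.66, 1.79 and 3.34 FPKM in treated ileum, against 0.863, 1.15, 1.04 and 0.955 FPKM in KO ileum (0.83 ± 0.29, adjusted p = 0.939). It was also above KO in uninjected ileum (1.59, 4.18 and 1.39 FPKM in uninjected, against 0.8289, 1.10, 0.994 and 0.905 FPKM in KO libraries; 0.86 ± 0.35, adjusted p = 0.665), and by 0.45 without Ileum uninjected 3. The related Ccl4 overlapped in every comparison. Among low genes, the eotaxin Ccl24 and its receptor Ccr3, the eosinophil receptor, were not tested in the colon but did not overlap: Ccl24 had 1.70, 0.948 and 1.29 FPKM in treated colon, against 0.374, 0.412, 0.486 and 0.908 FPKM in KO colon. Ccr3 had 0.182, 0.308 and 0.166 FPKM in treated colon, against 0.0535, 0.0368, 0.0434 and 0.0507 FPKM in KO colon. These values rest on few reads, 17, 10 and 13 in treated colon, against 4, 3, 3 and 5 in KO colon.

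Among the resident chemokines of the gut no member passed the threshold. Ccl25, the small-intestinal epithelial ligand of Ccr9, was the most abundant member in the ileum: 824, 206 and 502 FPKM in uninjected ileum, against 605, 705, 841 and 468 FPKM in KO ileum (-0.54 ± 0.47, adjusted p = 0.671). Treated ileum had 216, 639 and 452 FPKM, against 630, 733, 884 and 494 FPKM in KO ileum (-0.76 ± 0.40, adjusted p = 0.939), with overlap. In the separately scaled colon table it was far lower, at 8.15, 6.39 and 7.37 FPKM in treated colon, against 4.99, 3.62, 7.93 and 4.13 FPKM in KO colon (0.51 ± 0.26, adjusted p = 0.725). Its receptor Ccr9 was higher in ileum than in colon tables, at 1.88, 4.76 and 5.73 FPKM in treated ileum, against 3.99, 3.61, 4.22 and 4.04 FPKM in KO ileum. In the colon Ccr9 was too low to be tested, with 0.619 to 0.667 FPKM in treated and 0.288 to 0.558 FPKM in KO libraries, without overlap. Epithelial markers were within overlapping ranges, with sums of 5045 to 9148 FPKM in treated and 6701 to 10003 FPKM in KO ileum.

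Ccl28, the mucosal epithelial ligand of Ccr10, was the member furthest below KO in the colon. It had 9.48, 14.6, 13.5 and 27.5 FPKM in uninjected colon, against 35.6, 30.4, 21.1 and 37.9 FPKM in KO colon (-0.995 ± 0.326, unadjusted p = 0.013, adjusted p = 0.721). Treated colon had 12.1, 7.77 and 38.2 FPKM, against 37.7, 32.2, 22.7 and 40.3 FPKM in KO colon (-1.05 ± 0.48, adjusted p = 0.695). Both transgenic groups were mostly lower than KO, with 1 library of each inside the KO range. Treated minus uninjected colon was -0.05 ± 0.55 (adjusted p = 1.0), with a wide error. The uninjected colon library closest to KO, number 4, is the male one and the one from a 10-week-old mouse. With sex as a covariate the difference from KO was -0.15. That fit rests on this 1 library, as all KO mice were male, so the part of sex was not tested. Ccr10, on plasma cells, averaged 2.40 ± 1.60 FPKM in uninjected colon and 2.14 ± 0.582 FPKM in KO colon (SD, n = 4 each).

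**Figure D4:**
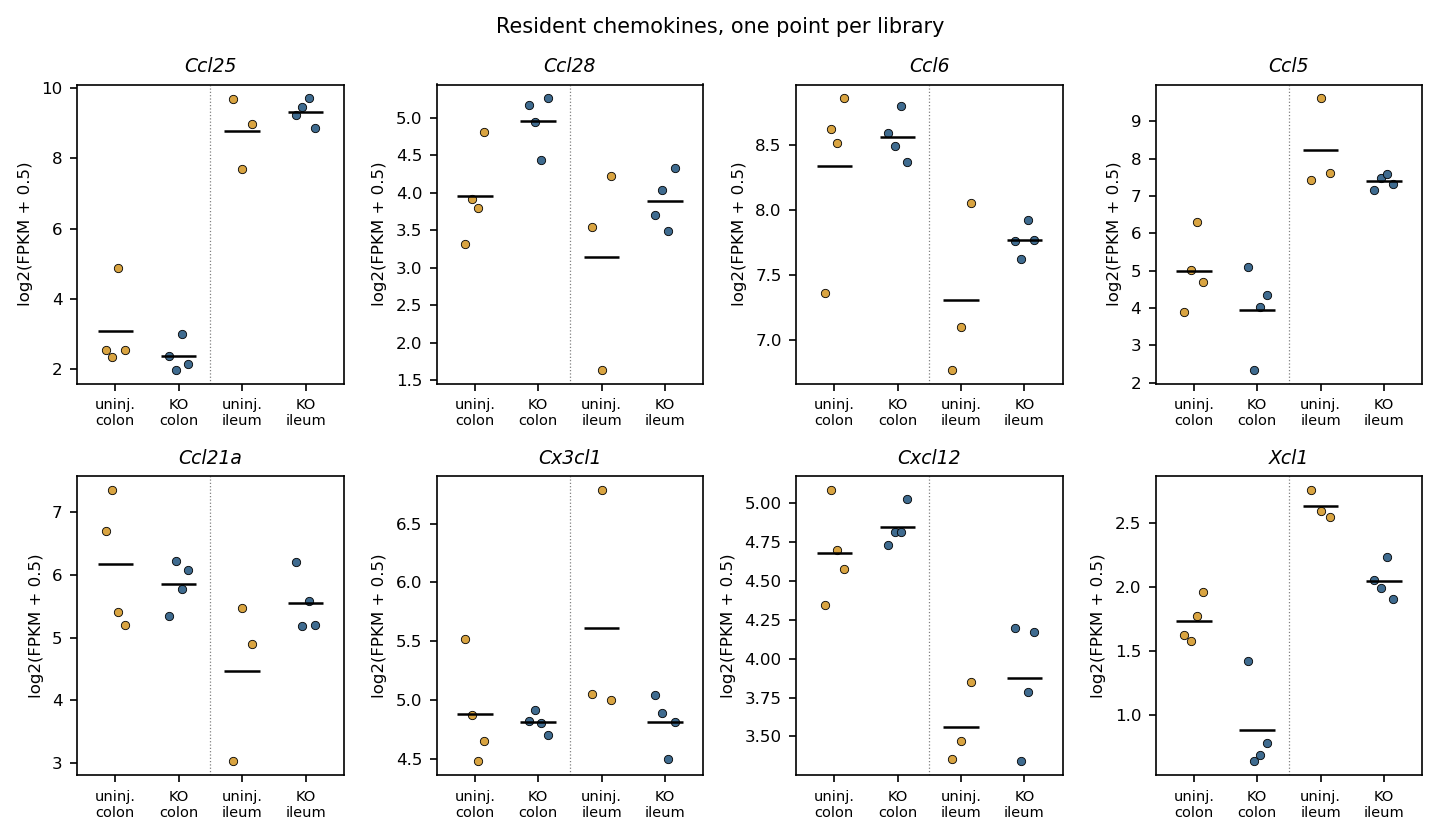
Log2(FPKM + 0.5) of 8 constitutively made ligands (1 panel each), uninjected left of KO for colon and then ileum; points are libraries and bars are means of the log2 values. Ccl28 is mostly lower in uninjected than in KO colon, Xcl1 does not overlap in either tissue, and Ccl25 lies between 206 and 841 FPKM in the ileum.

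Xcl1, made by T and NK cells for Xcr1-bearing dendritic cells, was the ligand with the smallest p in uninjected against KO colon. It had 2.57, 2.48, 2.92 and 3.38 FPKM in uninjected colon, against 2.18, 1.05, 1.10 and 1.21 FPKM in KO colon (0.85 ± 0.26, unadjusted p = 0.00871, adjusted p = 0.721). In the ileum it had 6.27, 5.55 and 5.34 FPKM in uninjected libraries, against 3.64, 3.48, 4.21 and 3.24 FPKM in KO libraries (0.59 ± 0.22, adjusted p = 0.665). The groups did not overlap in either tissue. Summed T cell markers overlapped in both, at 13.7 to 22.0 FPKM in uninjected and 9.79 to 19.3 FPKM in KO colon, and at 66.2 to 111 FPKM in uninjected and 57.4 to 70.8 FPKM in KO ileum. Treated ileum was lower than uninjected ileum for Xcl1 (2.72, 3.86 and 4.62 FPKM, against 6.07, 5.36 and 5.24 FPKM in uninjected ileum; -0.54 ± 0.36, adjusted p = 1.0), the only tested member below without overlap there. Its receptor Xcr1 was tested in treated minus KO ileum only, at 0.769, 0.827 and 1.2 FPKM in treated ileum, against 1.07, 1.07, 1.35 and 1.06 FPKM in KO ileum.

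Cxcl12, the stromal ligand that retains leukocytes through Cxcr4, was higher in treated libraries of both tissues. It had 33.7, 52.5 and 47.6 FPKM in treated colon, against 27.6, 29.3, 29.6 and 34.1 FPKM in KO colon (0.54 ± 0.19, adjusted p = 0.567), and 20.8, 19.97 and 26.8 FPKM in treated ileum, against 18.6, 10.0, 14.0 and 18.5 FPKM in KO ileum (0.58 ± 0.28, adjusted p = 0.939). In the ileum the groups did not overlap, nor did treated and uninjected ileum (0.89 ± 0.35, adjusted p = 1.0). Cxcr4 was listed at 0 in Colon treated 2, Colon KO 3, Ileum treated 2, Ileum uninjected 3 and Ileum KO 3, while the other libraries had 1.76 to 10.3 FPKM; Cxcl16 and Ccr7 also alternate between 0 and clear values, so no level of these 3 genes is read as a difference. Cxcr7, the scavenger of Cxcl12, had lower mean values in uninjected than in KO mice without passing the test: 5.04, 6.47, 2.01 and 4.08 FPKM in uninjected colon, against 5.40, 7.85, 8.84 and 7.57 FPKM in KO colon (-0.77 ± 0.32, adjusted p = 0.721), and -0.48 without Colon uninjected 3. In the ileum it had 1.69, 2.33 and 2.76 FPKM in uninjected libraries, against 2.95, 4.19, 3.22 and 4.65 FPKM in KO libraries, without overlap (-0.63 ± 0.27, adjusted p = 0.665). Endothelial markers were lower in the same libraries, with sums of 6.81 to 16.5 FPKM in uninjected and 19.9 to 25.6 FPKM in KO colon, and 6.09 to 13.9 FPKM in uninjected and 15.3 to 22.0 FPKM in KO ileum; their part was not tested.

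The fractalkine gene Cx3cl1, whose membrane-bound product holds Cx3cr1-bearing macrophages, overlapped between groups, at 26.4, 27.1 and 29.4 FPKM in treated colon, against 29.5, 31.4, 29.5 and 27.1 FPKM in KO colon (-0.09 ± 0.14, adjusted p = 0.896). Cx3cr1 had 4.52, 4.90 and 5.12 FPKM in treated colon, against 3.92, 3.04, 3.19 and 4.60 FPKM in KO colon (0.37 ± 0.19, adjusted p = 0.736). Ccl6, a CC ligand found in mice, was the most abundant member in the colon, at 526, 192 and 437 FPKM in treated colon, against 407, 381, 476 and 350 FPKM in KO colon (-0.18 ± 0.34, adjusted p = 0.912). Ccl21a averaged 80.3 ± 42.9 FPKM in treated colon (n = 3) and 62.6 ± 15.8 FPKM in KO colon (SD, n = 4), and Ccl21c 18.1 ± 3.19 and 16.2 ± 2.59 FPKM. Ccl21b was at 0 in all of these libraries; the 3 Ccl21 genes are near-identical copies, and how shared reads were divided is not given in the sources used here. Ccl19, Cxcl14, Ccl17, Ccl22, Ccr4, Cxcr6 and Ccl27a overlapped in all comparisons in which they were tested. Of these, Ccl17 had 3.61, 5.48 and 3.94 FPKM in uninjected ileum, against 2.53, 1.84, 1.60 and 3.74 FPKM in KO ileum. That difference was 0.76 ± 0.31 (limma, unadjusted p = 0.0365, adjusted p = 0.665).

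A total of 29 members were tested in all 6 comparisons, 17 in some and 11 in none. The 11 are Ccl1, Ccl21b, Ccl26, Ccr1l1, Ccr3, Ccr8, Cxcl11, Cxcl15, Cxcl17, Cxcl2 and Cxcr1, of which Ccl26 was at 0 in every library. An exact 0 in FPKM is reported only as listed, since genes such as Cxcr4 alternate between 0 and clear values.

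None of the listed partners of the pathway passed in any comparison. For the counts below, 7.31% of all genes had an unadjusted p under 0.05 (limma) in treated minus KO colon, 3.85% higher. The lists are short, so a count of a few genes is not read as a result about the pathway. Of 12 listed signalling genes, 9 were tested in treated minus KO colon and 2 had an unadjusted p under 0.05, both higher: Arrb2, a beta-arrestin (12.2 ± 3.14 FPKM in treated and 5.90 ± 0.823 FPKM in KO colon, adjusted p = 0.165), and the leukocyte GTPase Rac2 (8.29 ± 1.29 and 5.62 ± 0.910 FPKM). Of 10 homing and adhesion genes 7 were tested and 3 had an unadjusted p under 0.05, all higher: the leukocyte integrin chain Itgb2 (6.07 ± 1.19 FPKM in treated and 2.88 ± 0.569 FPKM in KO colon, adjusted p = 0.204), Icam1 and Selplg. Of 20 inducing cytokines and regulators 14 were tested and 2 had an unadjusted p under 0.05, Tnf (2.42 ± 1.2 FPKM in treated and 0.714 ± 0.520 FPKM in KO colon) and Il1b (2.99 ± 2.83 and 0.705 ± 0.28 FPKM), both higher in treated colon. The median log2 difference of this last list was 0.15, against -0.01 over all genes. Of the 7 decoy receptors and other chemokines 4 were tested, and the platelet and macrophage chemokine Pf4 was higher in treated than in KO colon (34.0 ± 1.87 and 21.2 ± 4.69 FPKM, adjusted p = 0.366) and in treated than in uninjected ileum (17.2 and 5.71 FPKM on average, adjusted p = 1.0), without overlap in either.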

How the data were processed

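The authors deposited FPKM values (fragments scaled to transcript length and library depth) in separately scaled tables of paired groups from poly(A) libraries. Reads were processed in CLC Genomics Workbench, per the labels' protocols; mm9, kallisto 0.45.0, DESeq 1.14.0 and DESeq2 are listed without a role, per the submitters' processing notes. Groups were compared within a table on log2(FPKM + 0.5), keeping genes that averaged 1 FPKM or more, with limma 3.58.1 (intensity trend, R 4.3.3), two-sided, with Benjamini-Hochberg adjustment over all genes tested and a threshold of 0.05. Tissue differences came from 1 fit over both tissues.

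Whole reads were recovered from the FPKM steps for 79.38% of 18779 colon genes and 79.13% of 18255 ileum genes (tolerance 0.0001) and were used for depth and, with voom, as an alternative. Other alternatives were the pseudocount, the filter, the scaling, 3 groups in 1 fit, the sex covariate, a replicate block, and leaving out libraries. The fits were tested on simulated data. Gene positions are from an mm9 annotation matched by symbol (55 of 57 members with 1 match).

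The labels and columns give 4 uninjected and 3 treated colon samples and were followed; the design text gives the numbers the other way round. Members with values in every library are those past the threshold, up to 5 per direction with the smallest unadjusted p in a comparison, and named ligand and receptor pairs; Cxcl2, Ccl24 and Ccr3 were added after their values were seen. The members and lists were chosen with earlier results of these data known. Some genes with a matching symbol are not reported here, 1 of which is among the members counted but is not named or drawn. Python 3.11.15, pandas 2.3.3 and matplotlib 3.10.9 were used for the rest.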

Additional observations from a re-analysis of the deposited data

Results flagged for a closer look

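In groups of 4 libraries, a library was singled out where its gap to the nearest other library took up most of the group's range. Of 103 such groups 11 were singled out (10.68%). Chance would give about 1 in 20 for independent groups, but these groups share libraries. No excess over chance is therefore read from the share. Colon uninjected 3, the library with the most acinar RNA, stood high for Ccl20 (9.098 FPKM, others 3.674 to 4.2 FPKM), Ccl25 (28.87 FPKM, others 4.521 to 5.346 FPKM), Cxcl1 (16.49 FPKM, others 0.115 to 1.704 FPKM) and Cxcl3 (7.234 FPKM, others 0 to 0.3406 FPKM). In the same group Colon uninjected 2 stood high for Ccr10 (4.783 FPKM, others 1.366 to 1.78 FPKM), Colon uninjected 1 low for Cx3cr1 (1.804 FPKM, others 4.201 to 4.507 FPKM) and Colon uninjected 4, the male library, low for Ccl27a (2.9 FPKM, others 11.82 to 12.92 FPKM). Colon KO 1, the youngest KO mouse in the colon, stood high for Xcl1 (2.181 FPKM, others 1.052 to 1.213 FPKM). Ileum KO 1 stood high for Ccl19 (14.44 FPKM, others 6.191 to 7.008 FPKM), and Ileum KO 4 for Ccr2 (2.17 FPKM, others 1.077 to 1.177 FPKM) and Cxcl9 (8.541 FPKM, others 4.546 to 5.021 FPKM).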

How the results depend on the processing

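The number of members called in treated minus KO colon was 2, and it was 1 (Ccl2) with the acinar libraries left out, 1 (Ccl2) when Colon treated 4 was left out as well, an alternative chosen after seeing the data, and 1 to 4 when single libraries were left out. It was 1 without Colon KO 1, 2 or 4 and 4 (Ccl2, Ccl7, Cxcl3 and Cxcl5) without Colon treated 1. In treated minus uninjected colon it was 0, and it was 1 (Ccl2) with the acinar libraries left out, 2 (Ccl2 and Ccl7) with 3 groups in 1 fit and 0 to 1 when single libraries were left out, the 1 being without Colon uninjected 3. The member count was 0 under every alternative run in the other 4 comparisons and in the 3 tissue differences. Of the 57 differences with an unadjusted p under 0.05 that were recomputed, 0 changed direction under the alternatives run; the other differences printed were not recomputed. The adjusted p of Ccl2 in treated minus KO colon ranged from 0.000996 to 0.0194, that of Ccl7 from 0.00671 to 0.0797 and that of Ccl12 from 0.0387 to 0.271; the cause was not tested. Over all genes, treated minus KO colon had 37 calls, and 17 with the acinar libraries left out. With the replicate block, uninjected minus KO colon had 0 members called, and 3 calls over all genes against 10; same-numbered libraries correlated at 0.0037, -0.0027, -0.0064 and 0.67, so the numbers do not pair them. No paired analysis was possible because the columns carry no replicate numbers of the labels in the other comparisons within a tissue. For the tissue differences, a replicate block by the column numbers that colon and ileum share also gave 0 members called in each. That block was chosen after seeing the data. Same-numbered colon and ileum libraries correlated at 0.032 to 0.60 in treated, 0.10 to 0.75 in uninjected and -0.14 to 0.63 in KO mice. In each group the highest of these values was that of number 4, above its pairs of unlike number. The numbers were not taken as pairs, and the main fit treated the libraries as independent. Whether colon and ileum came from the same mice is not given in the sources used here. Sex as a covariate in treated minus uninjected colon, also chosen after seeing the data, gave 0 members called and a Ccl2 difference of 3.27. The few reads of Ccl2 and Ccl7 in KO colon limit the precision of their folds.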
